A study of Mus musculus with 22 samples.

Results

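The induced pluripotent stem (iPS) cell line C3 was compared with the OSKM line for trimethylation of histone H3 at lysine 9 (H3K9me3), measured by chromatin immunoprecipitation and sequencing. All regions of the deposited table for this pair of lines that lie on chromosomes 1 to 19 were taken, 60587 of 68845 regions, and chromosome 8, with 3250 of them, was kept apart. Both lines were derived from embryonic fibroblasts of C57BL/6 mice. OSKM cells had been transduced with 4 factors, Oct4, Sox2, Klf4 and c-Myc. In C3 cells Oct4 was replaced by 3 zinc-finger artificial transcription factors, ZFATF1, ZFATF2 and ZFATF4, while Sox2, Klf4 and c-Myc were kept. The iPS cells of both lines received 100 nM 4-hydroxytamoxifen for their Oct4-MerCreMer and Tomato/GFP reporter and were fixed in 1.5% formaldehyde. Each line gave 2 libraries of the mark. Another line, C2, made with ZFATF1, ZFATF2 and ZFATF3 in place of Oct4, is given beside C3 where it was compared directly. Factor set goes with line, so an effect of the artificial factors and a property of the line cannot be told apart.

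H3K9me3 is the mark of constitutive heterochromatin. It is written by the Setdb1 and Suv39h methyltransferases, bound by HP1 proteins, and removed by Kdm4 demethylases. In pluripotent cells the Trim28 complex, led to DNA by KRAB zinc finger proteins, places it on transposable elements, on zinc finger genes and on the methylated allele of imprinting control regions, and in fibroblasts it is known as a barrier to reprogramming.

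Promoters of imprinted genes lie under some of the regions described further on. The 250 bases before the start site are printed for 5 of them, chosen to show each outcome: the region over the start was called higher in C3 for Airn and Zrsr1, called lower for Kcnq1ot1 and Nnat, and not called for Mest. The sequences are those of RefSeq (GRCm38.p6, the build of the mm10 coordinates in the files), written 5′ to 3′ along the gene, with each CpG, the dinucleotide that DNA methylation acts on, in capitals.
Airn, chr17:12741061-12741310, plus strand: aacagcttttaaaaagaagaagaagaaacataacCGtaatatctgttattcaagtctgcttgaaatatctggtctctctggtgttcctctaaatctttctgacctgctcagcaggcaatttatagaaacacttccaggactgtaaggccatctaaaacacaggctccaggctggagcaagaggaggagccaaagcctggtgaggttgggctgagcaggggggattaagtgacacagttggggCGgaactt
Zrsr1, chr11:22971755-22972004, plus strand: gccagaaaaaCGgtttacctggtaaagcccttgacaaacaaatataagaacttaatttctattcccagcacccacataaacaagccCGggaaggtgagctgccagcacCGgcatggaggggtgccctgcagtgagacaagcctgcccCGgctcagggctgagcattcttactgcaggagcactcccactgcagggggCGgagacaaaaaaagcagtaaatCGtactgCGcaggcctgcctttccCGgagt
Kcnq1ot1, chr7:143296548-143296797, minus strand: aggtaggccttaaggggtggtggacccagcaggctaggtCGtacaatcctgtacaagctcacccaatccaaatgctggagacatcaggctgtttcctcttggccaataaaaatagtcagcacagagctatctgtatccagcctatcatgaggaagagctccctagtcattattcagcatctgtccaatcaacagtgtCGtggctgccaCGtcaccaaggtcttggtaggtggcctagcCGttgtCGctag
Nnat, chr2:157559828-157560077, plus strand: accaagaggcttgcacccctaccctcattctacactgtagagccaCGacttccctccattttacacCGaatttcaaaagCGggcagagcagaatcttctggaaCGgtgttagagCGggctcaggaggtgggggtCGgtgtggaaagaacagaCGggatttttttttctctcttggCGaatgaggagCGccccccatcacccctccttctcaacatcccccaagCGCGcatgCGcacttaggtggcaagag
Mest, chr6:30737800-30738049, plus strand: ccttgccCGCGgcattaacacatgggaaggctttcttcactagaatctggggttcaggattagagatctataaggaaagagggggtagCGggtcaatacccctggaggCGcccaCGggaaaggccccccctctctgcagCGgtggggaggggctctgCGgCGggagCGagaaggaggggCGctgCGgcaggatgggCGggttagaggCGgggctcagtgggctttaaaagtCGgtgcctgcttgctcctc
CpG reads the same on both strands. Airn held 2, Kcnq1ot1 5, Zrsr1 8, Nnat 12 and Mest 14, beside a median of 6 over 32851 promoter windows of the same length, of which 92.1% held at least 1. TGCCGC, the motif of the imprint-keeping zinc finger protein ZFP57, was searched on both strands (as TGCCGC and as GCGGCA). It was present 2 times in Mest and at least once in 8.68% of the 32851 windows, and these letters were not in the windows of the other 4. Promoters under other start regions that were not called were mixed: Plagl1 and Nap1l5 held the motif 1 time each, and Peg3 and Snrpn did not hold it.

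The libraries differed in their reads in regions relative to the tags kept. Tags kept after duplicate removal numbered 44426255 and 34550520 in C3 and 35889217 and 36620590 in OSKM. Duplicates made up 25% and 27% of tags in C3 and 36% and 42% in OSKM. Reads in regions equalled 14.6% and 10.4% of the kept tags in C3 and 19.8% and 23.3% in OSKM. These are ratios and not shares, because the reads were not held to 1 per position as the tags were. Whole reads in regions were 6492161 and 3579357 in C3 and 7118324 and 8548902 in OSKM. Peaks called per library ranged from 56350 in C3 replicate 2 to 96055 in C3 replicate 1. C3 libraries had their own pair of inputs and OSKM shared a pair with C2, so input and line cannot be told apart in this comparison. The labels say that each line was collected in duplicate and do not say whether from separate cultures, so p-values measure the spread between these samples, which may be technical.

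The labelled cell type was read from H3K27ac, a mark of active promoters and enhancers, in other libraries of the same lines. All 10 pluripotency markers had an H3K27ac region, with a median over markers of 3814 and 2461 normalized reads in the C3 libraries and 4322 and 4168 in OSKM. Of these only Zfp42 was called, lower in C3 (log2 fold change -1.24). It lies on chromosome 8, where the median H3K27ac log2 fold change over all tested regions was -1.12. Of 10 fibroblast markers 9 had a region, with medians of 20.1 and 17.5 in C3 and 13.3 and 23.8 in OSKM, and Fn1 was high in both lines (1501 to 2361). Of 8 primitive endoderm markers 7 were called higher in C3, beside 25.7% of all H3K27ac regions tested being called in either direction. Their medians were 678 and 444 in C3 and 104 and 149 in OSKM. Sox17 (297 and 227 in C3, 3.31 and 90.4 in OSKM) was not called. The part of such cells in the H3K9me3 results was not tested. A smaller share of cells with a mark and less of it per cell cannot be told apart in these bulk samples.

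Over chromosomes 1 to 19 without 8, C3 had less H3K9me3 than OSKM at more regions than it had more. The test was limma on log2(normalized reads + 1), with p-values adjusted over all 49255 tested regions of the table, of which 9.45% were called at an adjusted p under 0.05. Of 43642 tested regions 874 were called higher in C3, which is 2%, and 2810 lower, which is 6.44%. At an unadjusted p under 0.05, 3607 were higher and 6421 lower. The median log2 fold change over all 43642 was -0.04, with quartiles at -0.42 and 0.34. Among the calls the median size was 1.19 log2 units for higher and 0.99 for lower regions. The balance between directions moved with the processing. Quantile normalization called 2040 higher and 2115 lower. The count models, which differ in both test and scaling, gave with edgeR 1420 higher and 2528 lower, and with DESeq2 1349 higher and 2379 lower. The authors' deposited table gave 2207 higher and 3280 lower at a false discovery rate under 0.05. Scaling by whole-library tags, which moved the median of all regions to -0.53, called 170 higher and 4883 lower. Those tags were counted after duplicate removal, which the reads in regions were not. Duplicates were more frequent in OSKM (36% and 42%) than in C3 (25% and 27%). Tag scaling, here and below, therefore also lowers C3 against OSKM by this difference. Each library was also left out in turn. The median log2 fold change was -0.056 and -0.054 without OSKM replicate 1 or 2, and -0.085 and 0.042 without C3 replicate 1 or 2. Such a fit has 1 library in a line, so its error comes from the pair of the other line alone. Log2 values correlated at 0.886 between the C3 libraries and 0.928 between the OSKM libraries. A call lost without a library, here and below, may therefore reflect which pair gave the error and does not show that it needed that library. In all, 691 calls (124 higher, 567 lower) held without each library in turn. Where the lines are said below not to overlap, this was read from the same libraries as the call and is no separate evidence for it.

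Lower calls were most frequent among strong and wide regions and near genes. The share called lower was 1.61% among regions with a mean of 10 to 30 normalized reads and 46.6% among the 266 regions with 1000 or more, while the share called higher was 0.776% and 6.02%. A larger number of reads narrows the error of a region, so the classes of level also differ in what could be detected. The share called lower was 3.29% in regions under 1 kb wide and 11.8% in those of 5 kb or more. Within 2 kb of a gene 10.4% were lower and 1.70% higher, whereas over 50 kb from any gene 1.73% were lower and 2.27% higher. Regions over an annotated start site numbered 364, of which 54 were lower and 8 higher. Start sites of chromosome 18 were not used, so its 1461 tested regions are outside this count. Of the 2810 lower regions 2783 had a called peak in both OSKM libraries and 643 had a peak in neither C3 library. Of the 874 higher regions 738 had a peak in both C3 libraries and 299 in neither OSKM library.

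**Figure D1:**
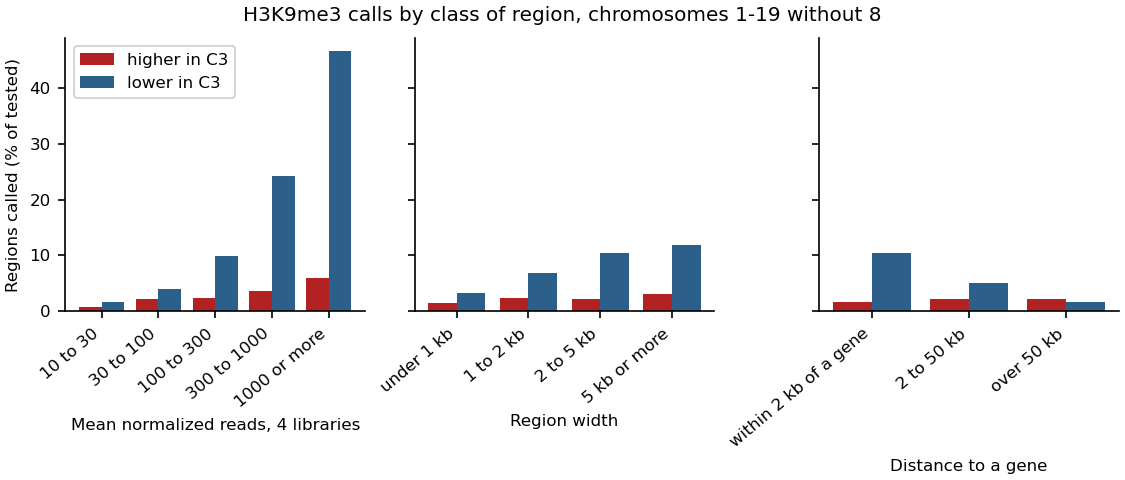
Bars give the share of tested H3K9me3 regions called higher (red) or lower (blue) in C3 than in OSKM, in % of regions tested, by mean level over the 4 libraries, by region width and by distance to the nearest gene. The blue bars climb with level to 46.6% and shrink with distance to 1.73%.

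The largest gain in C3 was a block of 3 adjoining regions over the zinc finger genes Zfp12 and Zfp316 on chromosome 5. At chr5:143242860-143249227 C3 had 1075 and 1080 normalized reads and both OSKM libraries were at the floor of the table, 1 read (0.951 and 0.804 normalized reads). Set against 3 reads per library, C3 was at least 409-fold higher (log2 fold change 9.17, SE 0.35, limma adjusted p = 7.26e-08). In the middle region (chr5:143249480-143253713) C3 had 1056 and 797 and OSKM 2.85 and 0.804. The third (chr5:143254106-143258268) had 1081 and 756 in C3 and 16.2 and 15.3 in OSKM. The C3 libraries were all far above the OSKM libraries, which were at or near the floor in the first 2 regions and above it in the last. H3K27ac went the other way in the middle region, with both C3 libraries at 1 read and OSKM at 75.1 and 85.4 normalized reads, and was called lower in C3 (adjusted p = 0.00304 with limma).

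The other large gains were at imprinted genes and at a predicted gene. Over the start site of Airn, the long non-coding RNA that silences Igf2r on the paternal chromosome, C3 had 283 and 246 normalized reads and both OSKM libraries 1 read (chr17:12739501-12741756, inside the extent of Igf2r). C3 was at least 101-fold higher there (log2 fold change 7.14, SE 0.53, limma adjusted p = 1.59e-05). Next to it, at chr17:12742091-12744691, C3 had 316 and 257 and OSKM 9.51 and 0.804. Zrsr1 is a paternally expressed retrogene inside Commd1. Over its start (chr11:22970995-22972195) C3 had 109 and 178 and both OSKM libraries 1 read, at least 54.5-fold (limma adjusted p = 0.000163). At Impact, a paternally expressed regulator of translation (chr18:12972724-12974634), C3 had 203 and 77.5 and OSKM 1.90 and 0.804. At the predicted gene Gm11963 (chr11:5501178-5502070) C3 had 59.5 and 72.9 and both OSKM libraries 1 read, at least 25.1-fold. All the C3 libraries were above all the OSKM libraries, which had at most 9.51 normalized reads, and each of these calls held without any single library.

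**Figure D2:**
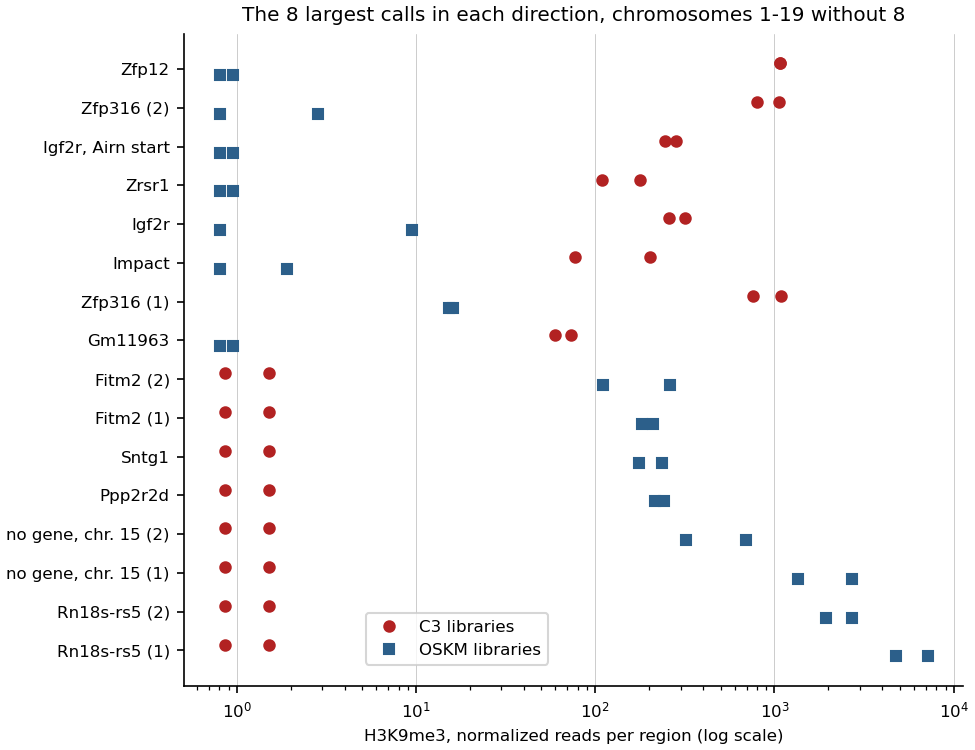
Normalized H3K9me3 reads per region (log axis) of the 8 regions with the largest fold change in each direction, with C3 libraries as red circles and OSKM libraries as blue squares. C3 libraries sit between 59.5 and 1081 in the upper 8 regions and at 1 read in the lower 8, where OSKM libraries sit between 111 and 7146.

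The largest losses were regions where C3 was at 1 read. At Rn18s-rs5, a copy of 18S ribosomal RNA sequence (chr17:39842993-39845655), the C3 libraries were at the floor (0.862 and 1.52 normalized reads) and OSKM had 7146 and 4743. C3 was at least 1665-fold lower (log2 fold change -11.39, SE 0.26, limma adjusted p = 6.25e-10). A further region of Rn18s-rs5 (chr17:39845883-39847374) had 2712 and 1932 in OSKM and 1 read in both C3 libraries. Ribosomal DNA is repeated in the genome, so reads there can come from other copies and the place of this signal is uncertain. C2, normalized in a table of its own with C3, was also at 1 read in both libraries at these regions, and it shares its inputs with OSKM.

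The other regions among the largest losses lay near genes of varied function. A pair without a gene within 2000 bp lay side by side on chromosome 15, with 2701 and 1354 in OSKM at chr15:75086120-75087048 and 691 and 322 at chr15:75085478-75085876. Ppp2r2d, a regulatory subunit of protein phosphatase 2A, had 241 and 215 in OSKM (chr7:138854815-138855936, at least 63.7-fold lower in C3). Sntg1, a syntrophin, had 235 and 176 (chr1:8956571-8958705, at least 57.5-fold). Both C3 libraries were at 1 read in each of these 4 regions. Fitm2, which acts in the storage of fat in droplets, had 211 and 183 in OSKM at chr2:163466851-163468559 (at least 55.1-fold) and 262 and 111 at chr2:163468622-163470514 (at least 52.3-fold), again with C3 at 1 read. The latter Fitm2 region was not called without OSKM replicate 1 (limma adjusted p = 0.0717), while the other calls of this paragraph held without any single library. H3K27ac was not called at Ppp2r2d (3185 and 1839 normalized reads in C3, 1751 and 1765 in OSKM) or at the former Fitm2 region (1563 and 1034 in C3, 1327 and 1295 in OSKM). The pair on chromosome 15 shared an H3K27ac region that was not called either, with 24579 and 11758 in C3 and 13395 and 10663 in OSKM. Each of these values was above the pluripotency marker median of its library. Why both marks were so high there in OSKM was not tested.

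Over all lower calls, 76 regions had C3 at 1 read in both libraries, and 72 of these had no C3 peak. Over all higher calls, 18 regions had OSKM at 1 read in both libraries, and all 18 had no OSKM peak. The sources used here do not say whether control reads were subtracted before deposit. A value of 1 read therefore says that a region was at the floor of the table and not that it had no reads.

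The strongest regions of the table were lower in C3 as well. At chr2:98666241-98667336, without a gene within 2000 bp, C3 had 223420 and 276210 normalized reads and OSKM 660333 and 748402 (log2 fold change -1.50, SE 0.08, limma adjusted p = 1.57e-06). This region held 3.99% and 5.08% of the C3 reads and 9.76% and 10.9% of the OSKM reads. A neighbour, chr2:98662230-98662975, had 51050 and 68666 in C3 and 137357 and 149027 in OSKM. At chr14:19415682-19419704 C3 had 21810 and 24929 and OSKM 60579 and 68501. At chr9:3011390-3038376, which holds Mir101c, C3 had 17535 and 20305 and OSKM 48193 and 53741. Each C3 library was below every OSKM library at these 4 regions. The reads at chr2:98666241-98667336, which is 1096 bp wide, far exceed 1 per position, so many are repeats of the same position. Peaks were called with 1 tag kept per position, so the peak calls do not rest on these read numbers. In C3 a peak was called in only 1 of the 2 libraries at each region. In OSKM it was called in 1 library at chr2:98662230-98662975 and in both at the others. Under quantile normalization, which gives the top rank the same value in every library, the regions of chromosomes 2 and 14 were not called. Without a filter on the mean chr2:98666241-98667336 was not called either (limma adjusted p = 0.133). Whether reads at these regions come from other places in the genome was not tested.

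The strongest regions called higher were weaker and changed less. At the predicted genes Gm18262 (chr13:12851130-12865967) and Gm40904 (chr13:12925369-12932532), C3 had 3012 to 3198 normalized reads and OSKM 2154 to 2379, with log2 fold changes of 0.44 and 0.51, but scaling by whole-library tags turned Gm18262 to -0.055 and left Gm40904 uncalled. The widest region called higher, 21840 bp at chr16:3641529-3663368 with no gene within 2000 bp, had 4093 and 3335 in C3 and 2810 and 2190 in OSKM (log2 fold change 0.57, SE 0.12). It was not called without OSKM replicate 2 (adjusted p = 0.0842 with limma), under tag scaling or in the authors' deposited table. Of the widest regions called lower, 59296 bp at Gm8270 (chr10:83423748-83483043) had 6867 and 6829 in C3 and 8026 and 8069 in OSKM (-0.23), and 29837 bp at Agrn (chr4:156135151-156164987), a gene of the neuromuscular synapse, had 2812 and 2717 in C3 and 3361 and 3179 in OSKM (-0.24). Gm8270 and Agrn were not called without either OSKM library (limma adjusted p from 0.100 to 0.281), and Agrn also not without C3 replicate 2 (0.0983). Both calls were also lost with DESeq2 (adjusted p = 0.434 for Gm8270 and 0.340 for Agrn), edgeR, median centring, quantile normalization, tag scaling and without a filter on the mean. At 23260 bp over Gm23793 (chr10:130544888-130568147) the change was larger, with 1386 and 1418 in C3 and 2091 and 2277 in OSKM (-0.64). At all of these the lines did not overlap.

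Imprinted genes differed in both directions. Of 40 listed genes 29 had a tested region within 2000 bp, in 24 distinct regions. Among these 5 genes were called higher and 7 lower, with a median log2 fold change of -0.28. Over all tested regions 2% were higher and 6.44% lower, and within 2 kb of a gene 1.70% and 10.4%. A gene takes its strongest region, and stronger regions were called more often. Such shares are therefore not of like regions, here and for the lists below. Higher were Airn and Igf2r, which share a region, Zrsr1, Impact and Igf2. Lower were Mcts2 and H13, which share a region, Mkrn3, Zdbf2, Rtl1, Nnat and H19. Igf2, the fetal growth factor, had 267 and 197 in C3 and 137 and 130 in OSKM (0.78), and H19, the maternally expressed RNA that shares its enhancers, had 328 and 305 in C3 and 602 and 532 in OSKM (-0.84). Nnat, a paternally expressed membrane proteolipid, had 724 and 594 in C3 and 1435 and 1375 in OSKM (-1.10, SE 0.11, limma adjusted p = 0.000115). Rtl1, a retrotransposon-derived gene of the Dlk1-Dio3 cluster, had 203 and 108 against 768 and 634 (-2.23). In each of these the lines did not overlap.

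The remaining lower imprinted regions were weaker and rested on fewer reads. The region shared by H13 and the retrogene Mcts2 had 1 read in both C3 libraries and 63.7 and 65.9 normalized reads in OSKM (chr2:152687460-152688083, at least 18.2-fold). The region near Mkrn3, a paternally expressed ubiquitin ligase, had 4.31 and 1.52 in C3 and 58.0 and 47.4 in OSKM, and Zdbf2, a paternally expressed growth gene, had 68.1 and 15.2 in C3 and 220 and 130 in OSKM. The lines did not overlap here. Without OSKM replicate 1 or 2, limma adjusted p was 0.176 and 0.191 for Mcts2 and H13 and 0.230 and 0.174 for Mkrn3. Without OSKM replicate 1 it was 0.142 for Zdbf2, which DESeq2 did not call either. Igf2 was lost without C3 replicate 1 (0.0757), OSKM replicate 1 (0.107) or OSKM replicate 2 (0.148), and under tag scaling (0.656). Zrsr1, Igf2r, Impact, Nnat, Rtl1 and H19 were called without any single library.

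The regions over the start sites of imprinted genes showed the same mixture. This set was put together after its values were seen, and it holds no start site of chromosome 18, where Impact lies. The start of Kcnq1ot1, the antisense RNA whose promoter is the imprinting control region of the Kcnq1 cluster, lay in chr7:143294394-143297003, where C3 had 50.0 and 1.52 normalized reads and OSKM 279 and 220 (-4.46, SE 0.94, limma adjusted p = 0.0118). The lines did not overlap, and C3 replicate 2 was at 1 read. It was not called without OSKM replicate 1 (limma adjusted p = 0.0766) or 2 (0.0633), nor by DESeq2. H3K27ac there was called higher in C3, with 659 and 497 in C3 and 240 and 335 in OSKM. The start regions of Mest (429 and 313 in C3, 550 and 470 in OSKM), Snrpn (121 and 131, 169 and 170), Plagl1 (626 and 538, 734 and 601), Nap1l5 (446 and 381, 461 and 445) and Peg3 (250 and 169, 194 and 167) were not called. At Zrsr1 and Impact, where H3K9me3 was higher in C3, H3K27ac was called lower, with 341 and 256 in C3 and 791 and 841 in OSKM at Zrsr1. At the Airn start H3K27ac was not called (43.5 and 25.1 in C3, 28.7 and 25.8 in OSKM), nor at the neighbouring region of Igf2r. At the predicted gene Gm34081, between Dlk1 and Meg3 (chr12:109525023-109532098), H3K9me3 was 1342 and 1069 in C3 and 846 and 752 in OSKM (0.59, limma adjusted p = 0.00792, and 0.0859 without OSKM replicate 2, and not called under tag scaling or in the authors' deposited table), and H3K27ac was at 1 read in both C3 libraries and at 2858 and 2632 in OSKM.

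**Figure D3:**
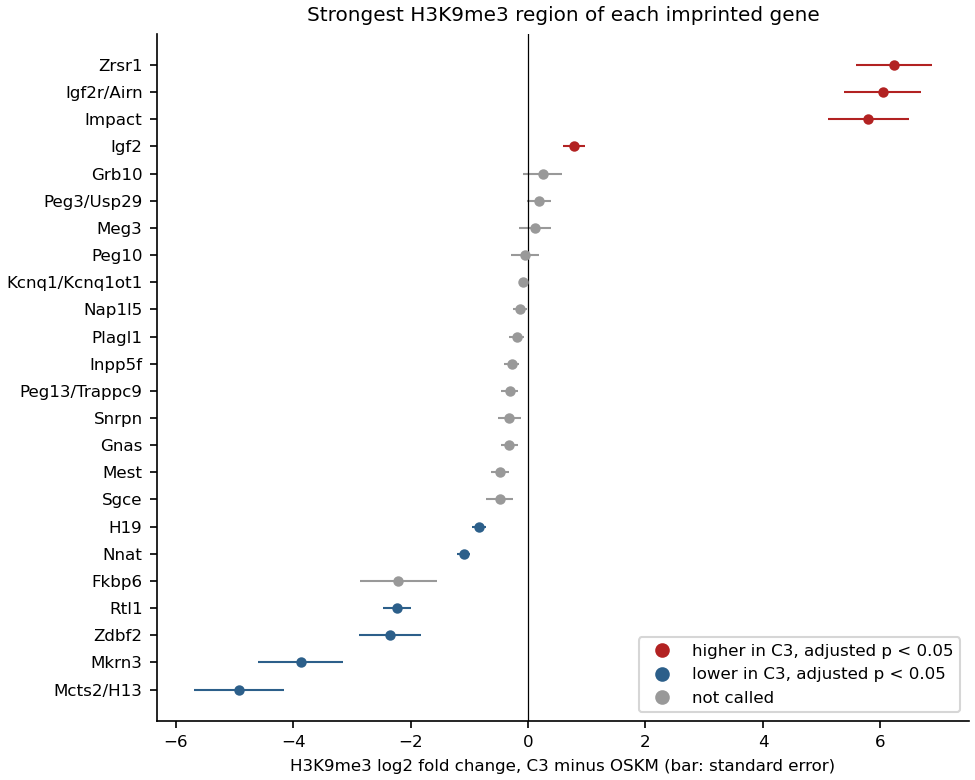
Log2 fold change of H3K9me3, C3 minus OSKM, with its standard error, at the strongest region of each imprinted gene on the list that was tested. Zrsr1, Igf2r with Airn, and Impact lie near 6 on the right, Mcts2 with H13 and Mkrn3 lie farthest to the left, and grey points were not called.

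Among 133 tested zinc finger genes of the Zfp series, 36 were called lower and 5 higher, with a median log2 fold change of -0.42. Over all tested regions 6.44% were lower and 2% higher, and within 2 kb of a gene 10.4% and 1.70%. Beside Zfp12 and Zfp316, the genes called higher included Zfp667 (100 and 80.5 in C3, 46.6 and 21.7 in OSKM) and Zfp180 (682 and 623, 410 and 363). Zfp607b had the largest loss of the family, 55.2 and 112 in C3 and 417 and 392 in OSKM (-2.35, SE 0.27, limma adjusted p = 0.000285). A region shared by Zfp553 and Zfp771 had 221 and 143 in C3 and 569 and 481 in OSKM. Zfp93 had 40.5 and 44.0 in C3 and 109 and 112 in OSKM. Zfp951, the family member with the highest mean, had 3529 and 3671 in C3 and 4859 and 4874 in OSKM (-0.43), and turned to 0.14 under quantile normalization. The lines did not overlap at any of these. Zfp667 and Zfp180 were not called under tag scaling (0.172 and 0.647), Zfp667 also not without OSKM replicate 2 (0.228), nor Zfp93 without OSKM replicate 1 (0.0903) or 2 (0.102), by limma adjusted p. With a library left out in turn, the number of lower genes ranged from 15 to 49 and that of higher ones from 3 to 8.

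Clustered protocadherins, adhesion proteins whose variable exons are strung along chromosome 18, gave 32 tested genes in 4 distinct regions. Of these genes 7 were called higher and 19 lower, beside 2% and 6.44% of all tested regions. Of regions within 2 kb of a gene 1.70% were higher and 10.4% lower. Genes that share a region are not separate measurements. A region inside the gamma cluster (chr18:37772052-37772905) had 1 read in both C3 libraries and 125 and 120 normalized reads in OSKM (at least 34.2-fold lower). It was not called without OSKM replicate 1 or 2 (adjusted p = 0.0618 and 0.0602 with limma). A region of the alpha cluster (chr18:36979473-36990237) had 605 and 478 in C3 and 378 and 379 in OSKM (0.50). It was not called without C3 replicate 1 (0.122) or OSKM replicate 1 (0.161) or 2 (0.165), nor under tag scaling or in the authors' deposited table.

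Of the transduced factors, Pou5f1 (Oct4) and Myc had a tested H3K9me3 region, and Sox2 and Klf4 had none within 2000 bp. Over the start of Pou5f1 (chr17:35505998-35506575) C3 had 347 and 223 and OSKM 584 and 501 (log2 fold change -0.95, SE 0.18, limma adjusted p = 0.00667). At Myc (chr15:61987461-61988274) C3 had 206 and 59.2 and OSKM 338 and 278 (-1.46, limma adjusted p = 0.0415). The lines did not overlap at either gene, which was read from the same libraries as the calls, and C3 replicate 2 was the lowest library at both. Pou5f1 was not called without OSKM replicate 1 (0.0745) and Myc not without OSKM replicate 1 (0.193) or 2 (0.120), nor by DESeq2 or in the authors' deposited table. H3K27ac was not called at Pou5f1, with 4193 and 2466 in C3 and 4389 and 4378 in OSKM. The deposited values do not tell an endogenous gene from a transduced copy.

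Over all tested regions 6.44% were lower in C3, and within 2 kb of a gene 10.4%. Of 35 naive and core pluripotency genes 4 had a tested H3K9me3 region and 3 of these were lower. Beside Pou5f1 these were Rif1, a telomere and replication-timing factor (244 and 346 in C3, 969 and 1080 in OSKM, -1.81, SE 0.15, limma adjusted p = 4.07e-05), and Esrrb, an orphan nuclear receptor of the naive state (171 and 165 in C3, 381 and 380 in OSKM, -1.17). Dppa3 was not called (72.4 and 65.3 in C3, 66.6 and 86.8 in OSKM). Both Rif1 and Esrrb were called without any single library, and the lines did not overlap.

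The list of H3K9 methylation enzymes, readers and demethylases had 11 tested entries. Beside 6.44% of all tested regions, and 10.4% of those within 2 kb of a gene, 6 of these entries were lower in C3. Tasor and Fam208a among them are names of the same gene, a subunit of the HUSH silencing complex. The H3K9 demethylase Kdm3b had 1 read in both C3 libraries and 63.7 and 53.9 normalized reads in OSKM (at least 16.5-fold lower), and Kdm3a had 47.4 and 69.9 in C3 and 91.3 and 196 in OSKM (-1.20). Atf7ip, a partner of Setdb1, had 226 and 298 in C3 and 377 and 429 in OSKM (-0.63). Tasor had 10.3 and 1.52 in C3 and 36.1 and 37.8 in OSKM. The lines did not overlap at these genes, but with a library left out in turn the count of lower entries ranged from 0 to 8. By limma adjusted p, Kdm3b was not called without OSKM replicate 1 (0.232) or 2 (0.191), Kdm3a without OSKM replicate 2 (0.471), Tasor without either (0.335 and 0.365), and Atf7ip without C3 replicate 1 (0.0513) or OSKM replicate 1 (0.0863) or 2 (0.226).

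Lineage and tissue genes carried few regions. Over all tested regions 6.44% were lower and 2% higher, and within 2 kb of a gene 10.4% and 1.70%. No gene was called in the lists of primed pluripotency (2 tested), neuroectoderm (1), mesoderm (3) or endothelium and blood (2). Snai1 and Zeb1, both inducers of the mesenchymal state, were lower among 12 tested fibroblast genes: Snai1 had 21.5 and 6.07 in C3 and 89.4 and 91.6 in OSKM (-2.86), and Zeb1 157 and 159 against 280 and 346 (-0.97). H3K27ac at Snai1 was called higher in C3. Ascl2, a trophoblast regulator, was lower among 3 tested trophoblast genes (50.8 and 7.59 in C3, 158 and 136 in OSKM, -2.80). Of 3 tested endoderm genes, Cubn, an endocytic receptor, was higher (166 and 164 in C3, 64.6 and 75.6 in OSKM, 1.23) and Lamc1, a laminin chain, lower (52.6 and 54.7, 103 and 143, -1.16). Cubn was called without any single library and not under tag scaling (limma adjusted p = 0.234). By limma adjusted p, Snai1 was not called without OSKM replicate 1 or 2 (0.0744 and 0.0845), Zeb1 without OSKM replicate 2 (0.0766), Ascl2 without either (0.0977 and 0.0783) and Lamc1 without either (0.0522 and 0.242), and Ascl2 was not called by DESeq2.

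Of 11 tested germline genes Tex14, needed for intercellular bridges of germ cells (446 and 348 in C3, 917 and 975 in OSKM, -1.26), and Stk31 (679 and 703, 899 and 1141, -0.55) were lower. Stk31 was not called without OSKM replicate 2 (0.167 by limma adjusted p), and H3K27ac at it was called higher in C3. Of 6 tested 2-cell-like genes Sp110, which has related copies beside it, so that the place of its reads is uncertain, was higher (2413 and 2087 in C3, 1559 and 1420 in OSKM, 0.59), and its call was lost in the authors' deposited table and under tag scaling. Keratins had 10 tested genes and 3 called higher: Krt88 (87.0 and 36.5 in C3, 12.4 and 0.804 in OSKM) and a region shared by Krt78 and Krt8 (322 and 234, 162 and 129, 0.92), where H3K27ac was called higher too, with 136 and 63.3 in C3 and both OSKM libraries at 1 read. Both keratin regions were lost without OSKM replicate 2 (limma adjusted p = 0.0982 and 0.117), Krt88 also with DESeq2 and the region of Krt78 also under tag scaling. Of 131 tested olfactory receptor genes 1 was higher and 6 lower, with a median of 0.04. Of 79 vomeronasal receptor genes 3 were higher and 5 lower, with a median of 0.06. All counts of this paragraph stand beside 2% higher and 6.44% lower over all tested regions. Within 2 kb of a gene these shares were 1.70% and 10.4%.

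H3K9me3 regions that were lower in C3 overlapped a listed H3K27ac region more often than other tested regions did. Of all 43642 tested regions 17.1% had such an overlap of any length, against 46.1% (1295) of the lower and 13.4% (117) of the higher ones. With at least 50% of the H3K9me3 region covered, the shares were 8.55%, 25.7% and 7.32%. Lower calls were also wider, with a median of 1998.5 bp against 1424 bp in higher calls. An overlap does not show that the mark was present: only 4634 of the 7482 overlapping regions reached a mean of at least 10 normalized H3K27ac reads. The 7482 regions had a median H3K9me3 log2 fold change of -0.33 and the 36160 without an overlap 0.01. The median level of the former was 57.7 and 50.1 normalized H3K9me3 reads in the C3 libraries and 70.4 and 68.3 in OSKM. In regions without an overlap it was 57.7, 53.2, 53.2 and 53.1. Each OSKM library was above each C3 library in the former class and not in the latter. The ratio of reads in regions to tags kept, higher in OSKM, goes with the same split of libraries, and its part in the result was not tested.

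H3K27ac itself moved in both directions at these regions. Of 1146 lower H3K9me3 regions whose overlapping H3K27ac region was tested, 134 were called higher and 113 lower in H3K27ac, with a median log2 fold change of 0.04. Of 78 higher H3K9me3 regions so tested, 40 were called higher and 10 lower in H3K27ac, with a median of 0.84. Over all 4634 such regions 900 were higher and 333 lower, with a median of 0.34. Where H3K27ac covered at least 50% of the H3K9me3 region, the median was 0.32 at the higher H3K9me3 regions and 0.37 over all, so the medians depended on the overlap asked for. Where H3K9me3 was called higher in C3, H3K27ac was thus called higher at 51.3% and lower at 12.8% of the regions tested for both, beside 19.4% and 7.19% over all such regions. Both marks of a line were set against the same inputs, and input and line cannot be told apart.

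**Figure D4:**
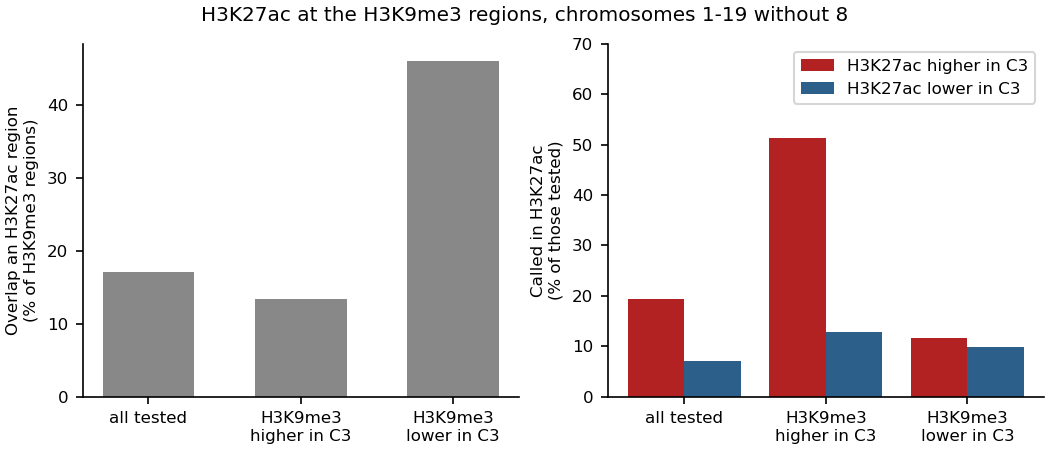
Left, the share of H3K9me3 regions that overlap an H3K27ac region, for all tested regions and for those called higher or lower in C3. Right, of the regions whose H3K27ac was tested, the share called higher (red) or lower (blue) in H3K27ac in C3: the tallest red bar, 51.3%, stands at the regions where H3K9me3 was higher.

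C3 was also compared directly with C2, the other line made without transduced Oct4. The C3 libraries are shared with the comparison against OSKM, so the values are given side by side. Between C3 and C2 58 of 47218 tested regions were called over all chromosomes (0.123%) and 22 of 42211 on chromosomes 1 to 19 without 8 (0.0521%). Of the regions named for C3 against OSKM, 84 were called on these chromosomes, 74 were tested against C2 and 2 were called, the vomeronasal receptor genes Vmn1r2 and Vmn1r238. In the table of C3 and C2, normalized on its own, the first region of the Zfp12 block had 858 and 842 in C3 and 757 and 561 in C2, the Airn start 226 and 192 in C3 and 230 and 256 in C2, and Zrsr1 87.3 and 139 in C3 and 93.8 and 88.6 in C2. None of these 3 was called between C3 and C2 (limma adjusted p from 0.581 to 0.829). Gm11963 was at 47.4 and 56.9 in C3 and at 1 read in both C2 libraries, which was not called either (adjusted p = 0.0787 with limma). A region not called is therefore not shown to be alike in C3 and C2. The median log2 fold change of C3 minus C2 was 0.42 at regions called higher against OSKM and -0.35 at those called lower. Over all tested regions it was 0.06. The same C3 libraries picked these regions, which by itself can move the medians this way.

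A few regions set C3 apart from C2 as well as from OSKM, chosen here after their values were seen. Over the start of Gm34545 inside Irak3, a negative regulator of Toll-like receptor signalling (chr10:120173177-120175066), C3 had 6.89 and 10.6 normalized reads against 372 and 274 in OSKM, and 5.50 and 8.29 against 67.9 and 105 in C2. The limma adjusted p was 8.76e-06 against OSKM and 0.0123 against C2. Platr3, a pluripotency-associated transcript, had 13.8 and 31.9 against 220 and 209 in OSKM, and 11.0 and 24.9 against 77.9 and 170 in C2. Pfkp, a phosphofructokinase, had 12.9 and 25.8 against 151 and 164 in OSKM, and 10.3 and 20.1 against 78.9 and 156 in C2. At 4930524B15Rik it was C3 that was high, 99.1 and 91.1 against 0.951 and 4.82 in OSKM, and 79.1 and 71.1 against 1 read in both libraries of C2. C3 did not overlap the other line at any of these.

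On chromosome 8 nearly the whole chromosome was lower in C3. Of 2515 tested regions 877 were called lower, which is 34.9%, and 0 higher, which is 0%. At an unadjusted p under 0.05 limma gave 1422 lower and 13 higher, edgeR called 843 lower and 1 higher at an adjusted p under 0.05, and DESeq2 772 and 0. The median log2 fold change was -0.83, with 89.6% of regions below 0, against 52.7% on the other autosomes. Relative to the median of the other autosomes C3 was lower by 1.74-fold. In 10 Mb stretches with at least 20 tested regions the median lay between -1.09 and -0.40 in all 13 stretches of chromosome 8 and between -0.62 and 0.28 in the 242 of the other autosomes. Chromosome 8 held 4.25% and 4.06% of the reads of the C3 libraries and 6.14% and 6.00% of those of OSKM. Of the regions named by size of change, Mast1, a microtubule-associated kinase, had 419 and 291 in OSKM at chr8:84915502-84916942 and 180 and 134 at chr8:84914169-84915079, and Gm39183 had 113 and 102 at chr8:65067169-65067854, with C3 at 1 read in all. Gm39183 was not called without OSKM replicate 1 or 2 (adjusted p = 0.0844 and 0.0720 with limma). Without OSKM replicate 1 there were 340 lower calls on the chromosome and without OSKM replicate 2 there were 327. H3K27ac was lower there as well, with a median log2 fold change of -1.12 over 4328 tested regions, against 0.06 over 81205 on the other autosomes. DNA copy number of the lines was not measured in the files used here, and its part was not tested.

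**Figure D5:**
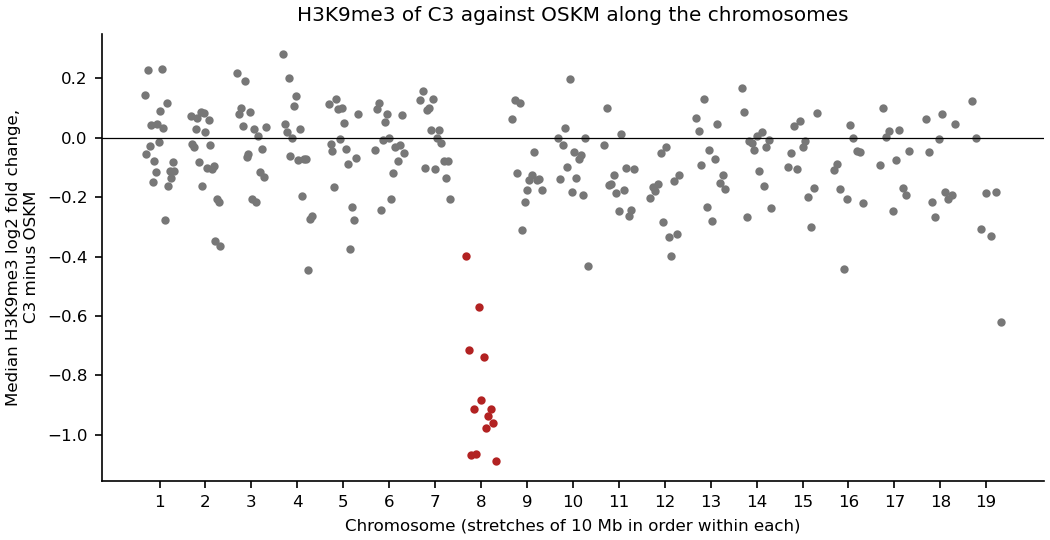
Each point is the median H3K9me3 log2 fold change, C3 minus OSKM, of the tested regions in a 10 Mb stretch with at least 20 of them, for chromosomes 1 to 19. The 13 stretches of chromosome 8 (red) lie between -1.09 and -0.40.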

How the data were processed

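H3K9me3 was measured in 2 libraries each of C3 and OSKM. Per the submitters' processing notes, the tools were DiffBind 1.16.2, Bowtie2 2.2.5, CASAVA 1.8.2 and SAMtools 1.3, and the build mm10. Per the file headers, the authors called peaks in each library against its input with MACS 2.1.0.20150731, at a q-value of 0.01, and the peak lists give a fold enrichment, a pileup and −log10 p and q per peak as the authors' own values. The table columns of C3 carry another name (N2) and were assigned to C3 because the peak file headers of the C3 samples use that name. The deposited comparison tables hold a normalized read signal per region and library, with the authors' log2 fold and mean values, p-value and FDR. Within each library every signal value was a whole multiple of its lowest, within a tolerance of 1e-06, so 1 read is the floor and whole reads were recovered (100% of values).

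From these, log2(signal + 1) of regions with a mean of at least 10 was fitted with limma 3.58.1 (trended variance, R 4.3.3), with Benjamini-Hochberg adjustment over all 49255 tested regions and a threshold of 0.05. H3K27ac and the table of C3 and C2 were fitted in the same way, each within its own table. The whole reads were also tested with edgeR 4.0.16 and DESeq2 1.42.0. Genes were matched to regions through RefSeq GRCm38.p6 extents with 2000 bp on either side, a gene taking its strongest region, and H3K27ac markers with 2500 bp; 327 of 328 listed names were found. Named regions were the 8 with the largest change, the 4 strongest and the 4 widest in each direction, the 3 with the largest change on chromosome 8, up to 4 called genes per list and direction, the strongest gene of each list, and the transduced factors. Others are said to be chosen after their values were seen. The regions, lists and rules were chosen with earlier results of these data known. A floor of 3 reads per library was used for folds against a line at 1 read. The fits were tested on simulated data. Chromosomes X and Y are outside the regions described.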

Additional observations from a re-analysis of the deposited data

Results flagged for a closer look

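A signal appeared outside the regions described: on chromosomes X and Y, 93 of 3098 tested regions were called by limma between C3 and OSKM, 10 higher and 83 lower in C3. The median log2 fold change was -0.07 over both chromosomes.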

How the results depend on the processing

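On chromosomes 1 to 19 without 8, the 874 higher calls became 1349 with DESeq2, 1420 with edgeR, 2207 in the authors' deposited table, 1544 without a filter on the mean, 2040 with quantile normalization, 1524 with the replicate number as a block and 170 with whole-library tag scaling. The 2810 lower calls became 4883 with tag scaling and 4067 with the block. Leaving out each library in turn gave 315 to 1402 higher and 786 to 5620 lower calls, and 327 to 1304 lower on chromosome 8. Higher calls on chromosome 8, 0 with limma, were 14 in the authors' deposited table, 5 without a filter, 3 with quantile normalization, 2 with a pseudocount of 8, tag scaling or the block, 1 with edgeR or median centring, and 1 to 4 with a library left out. Over all gene lists, 31 higher members became 59 with quantile normalization, 59 with a 10000 bp gene window and 7 with tag scaling, and 9 to 40 with a library left out. The 98 lower members became 176 with the 10000 bp window and 30 to 140 with a library left out. With at least 50% of an H3K9me3 region covered, H3K27ac overlapped 64 higher regions (50 tested, 22 called higher and 8 lower in H3K27ac) and 723 lower regions (699 tested, 99 higher and 59 lower). The replicate numbers did not pair the samples (correlation of deviations 0.0369), and under the block 11 named regions, in place of 2, were called between C3 and C2. Under tag scaling 6 of 87 named calls reversed: Gm18262 (-0.055), Serpinb6b (-0.0074), Cyp2d34-ps (-0.11), Pag1 (-0.20), chr17:27262498-27281779 (-0.23) and chr2:39772216-39787518 (-0.14). Under quantile normalization 4 lost their sign: Agrn (0.14), Zfp951 (0.14) and the pair on chromosome 2, chr2:98662230-98662975 and chr2:98666241-98667336 (both 0). The cause was not tested. Of the 87 named calls 83 held with edgeR, 77 with DESeq2, 51 without OSKM replicate 1 and 43 without OSKM replicate 2. A count test of C3 against C2 was not run. The whole reads in regions, from 3579357 to 8548902 per library, set the counting error of weak regions.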

Other observations

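Calls were gathered in some windows of 1 Mb, chosen here after their values were seen. Higher calls were most numerous at 3 Mb of chromosome 3, with 9 of 74 tested regions and a median log2 fold change of 0.38. Tested regions of this window, called or not, lay near Hnf4g, a nuclear receptor gene. At 12 Mb of chromosome 13, the window of Gm18262 and Gm40904, 8 of 24 were higher, with a median of 0.48. Lower calls were most numerous at 62 Mb of chromosome 13, with 14 of 54 tested regions and a median of -0.41, and at 37 Mb of chromosome 6, with 14 of 56 and a median of -0.47. At 145 Mb of chromosome 4, where tested regions, called or not, lay near the zinc finger genes Zfp980 and Zfp990, 13 of 51 were lower, with a median of -0.72. At chr7:12010272-12017826, which has no gene within 2000 bp, C3 had 332 and 305 normalized reads and OSKM 1787 and 1200, and in the table of C3 and C2 the values were 265 and 238 in C3 and 875 and 922 in C2 (limma adjusted p = 4.316e-05). At chr6:65070146-65072222, inside Smarcad1, a chromatin remodeller that acts in H3K9me3 upkeep, both C3 libraries were at 1 read, OSKM had 30.4 and 16.9 (not called, limma adjusted p = 0.0590) and C2 had 197 and 201 in its own table (called, adjusted p = 5.823e-05 with limma).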
